A study of Mus musculus with 6 samples.

Results

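Phox2a, Hand2, Th, Dbh and Prph are 5 genes of the sympathetic branch of the neural crest, and they were picked by symbol from a table of 16862 genes. They were followed in gonads of male mouse embryos of strain C57BL/6 at E13.5 (embryonic day). There were 3 libraries from embryos of genotype L/H-Pgds-/-, called KO and numbered 5, 7 and 8, and 3 wild-type libraries, called WT and numbered 1, 3 and 4. The genotype names both synthases of prostaglandin D2, encoded by Ptgds (lipocalin type) and Hpgds (hematopoietic type), and the comparison asks how transcripts of male gonads differ with it. Ptgds was almost without signal in KO, whereas Hpgds was higher in KO than in WT, so the RNA values match the label for Ptgds and go against a loss of transcript for Hpgds. Per the labels, the gonads came from different littermates, and neither the litters nor the deleted parts of the genes are given, so the p-values measure the spread between these 6 libraries. Values are upper-quartile normalised pseudo-counts, adjusted fractional values rather than reads, so the depth behind them is unknown.

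Sympathetic neurons arise from trunk neural crest cells that settle beside the dorsal aorta, near the developing gonad. Adrenal chromaffin cells also derive from the trunk neural crest. Transcription factors such as Phox2a and Hand2 switch on the enzymes of noradrenaline synthesis. Tyrosine hydroxylase, encoded by Th, makes L-DOPA from tyrosine as the rate-limiting step, and dopamine beta-hydroxylase, encoded by Dbh, turns dopamine into noradrenaline. Prph encodes peripherin, an intermediate filament of peripheral neurons. Hand2 is also used outside this lineage, in mesenchyme of the limb bud and in the developing heart.

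The promoters of the 5 genes show what the members share in sequence. Each sequence below is the 120 bases before the annotated start, from RefSeq on GRCm38.p6, written 5′ to 3′ on the strand of the gene. Capitals mark matches, on either strand, to 1 of the 7 motifs searched in the window from 250 bases before to 50 after the start. The last capital of Phox2a is the start of a match that runs past the annotated start.
Phox2a, chr7:101818193-101818312, plus strand: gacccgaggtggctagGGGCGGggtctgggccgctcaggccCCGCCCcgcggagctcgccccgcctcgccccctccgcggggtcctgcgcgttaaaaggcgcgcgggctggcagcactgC
Hand2, chr8:57320863-57320982, plus strand: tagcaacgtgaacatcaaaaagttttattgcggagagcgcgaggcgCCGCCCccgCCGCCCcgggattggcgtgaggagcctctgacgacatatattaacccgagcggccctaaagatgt
Th, chr7:142899996-142900115, minus strand: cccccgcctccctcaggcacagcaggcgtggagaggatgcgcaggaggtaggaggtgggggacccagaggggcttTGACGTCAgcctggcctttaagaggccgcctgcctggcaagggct
Dbh, chr2:27165387-27165506, plus strand: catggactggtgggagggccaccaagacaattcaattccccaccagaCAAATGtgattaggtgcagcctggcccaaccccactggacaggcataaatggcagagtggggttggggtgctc
Prph, chr15:99055054-99055173, plus strand: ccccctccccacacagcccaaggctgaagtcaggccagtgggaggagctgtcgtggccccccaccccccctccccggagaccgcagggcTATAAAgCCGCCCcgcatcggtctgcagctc

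In the Th promoter, TGACGT, the core of the cyclic AMP response element, was present on both strands in overlapping matches between 45 and 38 bases before the start. It was found in that promoter and in none of the other 4, and 7.51% of 32851 RefSeq promoters of the same length held it. The E-box CANNTG, the site type of Hand2 and other basic helix-loop-helix factors, was found in 4 of 5 members and in 72.3% of all promoters. GGGCGG, the GC box, was in 4 of 5 and in 35.7% of all. A palindromic homeodomain site, TAAT followed after 3 bases by ATTA, was in 0 of 5 and in 0.487% of all. TATAAA was in Prph alone among the members, between 31 and 26 bases before the start (13.6% of all), AGATAA in Hand2 alone (11.2% of all), and TGANTCA in Th alone (7.81% of all). G and C made up between 50.3% (Hand2) and 71.3% (Phox2a) of these promoters, against a median of 52.7% over all promoters. These matches describe letters and not bound sites.

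Among the 5 genes, Hand2 fell in the knockout, a call that ended with correction for the length and GC share of transcripts. The differences of Th, Prph and Phox2a did not pass the test. Dbh was too low to be tested. Genes that reached 10 or more in 3 or more libraries were compared by limma's moderated test on log2(value + 1), with Benjamini-Hochberg adjustment over 15116 genes and a threshold of 0.05. Of the 4 members tested, 0 rose, in a background where 17.3% of genes tested were higher in KO, and 1 fell, where 17.0% were lower. Fewer cells of a type and less RNA per cell cannot be told apart in these whole gonads.

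**Figure D1:**
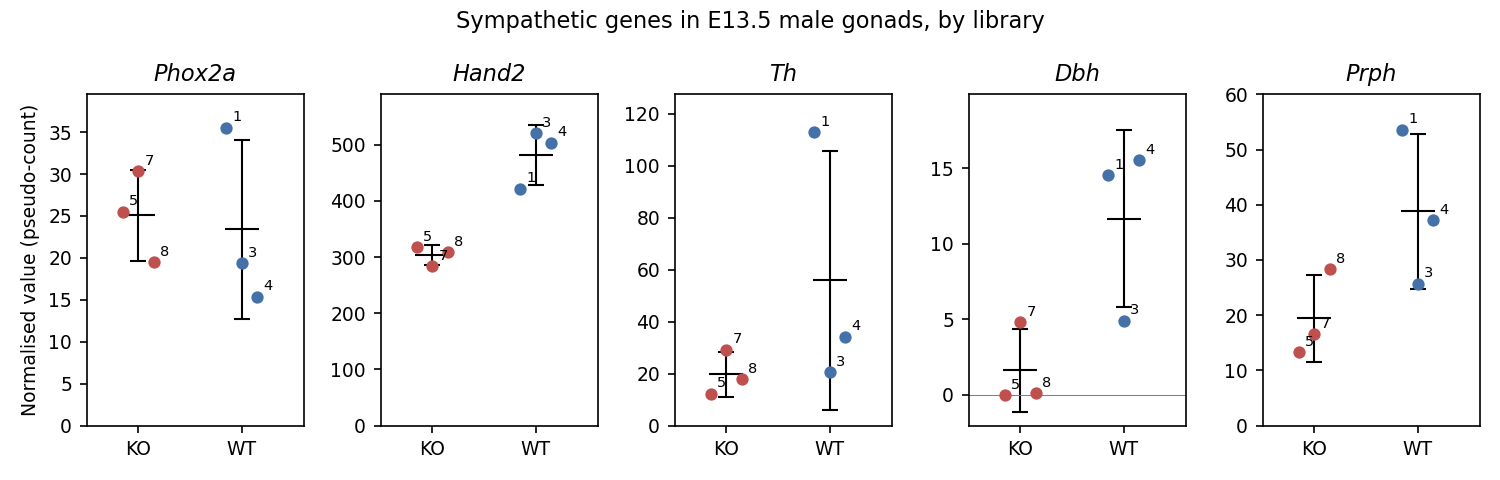
Normalised value (pseudo-count, linear axis) of the 5 genes in each library, KO left and WT right. Points are libraries with their numbers, and the cross-bar and whiskers are the mean and SD of 3 libraries. All KO libraries lie below all WT libraries for Hand2 and Dbh, an order shown by 25.6% of all genes tested, a set that leaves out Dbh. WT library 1 is the highest for Phox2a, Th and Prph.

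Phox2a (NCBI gene 11859, chromosome 7 from 108966827 to 108971145 in mm9) encodes a paired-type homeodomain factor of noradrenergic neurons. It held 25.5, 30.3 and 19.5 in KO libraries 5, 7 and 8, against 35.5, 19.4 and 15.4 in WT libraries 1, 3 and 4. All 3 KO libraries lay inside the range of the WT libraries. The log2 change was 0.16 (SE 0.37, adjusted p = 0.762), with a 95% interval from -0.66 to 0.98. In the later GENCODE vM21 annotation, exons of Inppl1, a phosphatase gene, overlap those of Phox2a on the opposite strand. Inppl1 had a mean of 4500 in KO and 3888 in WT. In the mm9 positions given with the values, Inppl1 starts at 108971241, so the 2 genes do not overlap there. The sources used here do not state that strand was used in counting, and whether reads of Inppl1 entered the value of Phox2a was not tested.

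Hand2 (NCBI gene 15111, chromosome 8 from 59799780 to 59803314 in mm9) encodes a basic helix-loop-helix factor. It held 317, 284 and 310 in KO, against 421.9, 520.8 and 503.8 in WT. The highest KO library lay below the lowest WT library, as in 25.6% of all genes tested, while the opposite order, seen in 24.7%, was shown by 0 of the 4 members tested. The mean was 304 ± 17.3 in KO and 482 ± 52.8 in WT (SD, n = 3 each), a ratio of 0.633 and a log2 change of -0.66 (SE 0.13, adjusted p = 0.00412). The 95% interval ran from -0.94 to -0.38. An exact permutation test of the 3 against 3 libraries, two-sided, gave p = 0.1, the smallest that this design allows. In the same GENCODE annotation, exons of Hand2os1, a non-coding RNA gene, overlap Hand2 on the opposite strand, so part of the value may belong to it.

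The fall of Hand2 was past the threshold without each single library, with log2 changes between -0.75 and -0.60. Its call ended when each library was corrected for the trend of its values with the length and GC share of transcripts, where the change was -0.31 (SE 0.12, adjusted p = 0.116). With WT library 1 also left out, the same removal gave -0.41 (SE 0.11, adjusted p = 0.0386) for Hand2, 0.99 (adjusted p = 0.0895) for Phox2a, -0.19 (adjusted p = 0.823) for Th and -0.27 (adjusted p = 0.69) for Prph. The longest coding transcripts of the 5 genes ran from 1609 nt (Phox2a) to 2552 nt (Dbh) and from 54.1% (Th) to 63.8% (Phox2a) in GC, against medians of 3117 nt and 50.6% over the genes tested. All 5 were therefore shorter and richer in GC than the median gene. After the same removal, Phox2a had a log2 change of 0.67 (adjusted p = 0.283), Th of -0.85 (adjusted p = 0.37) and Prph of -0.52 (adjusted p = 0.393). After that removal 6.65% of 14486 genes were lower and 6.05% higher in KO.

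Th (NCBI gene 21823, chromosome 7 from 150078681 to 150085871 in mm9) held 12.3, 29.3 and 18.0 in KO, against 113, 20.5 and 34.3 in WT. WT library 1 stood far above all others, and KO library 7 lay above WT library 3. The mean was 19.8 ± 8.65 in KO and 55.9 ± 49.9 in WT (SD, n = 3 each). The log2 change was -1.17 (SE 0.56, adjusted p = 0.131), with a 95% interval from -2.41 to 0.07. Without WT library 1 it was -0.49 (SE 0.41, adjusted p = 0.393), and without WT library 3 it was -1.69 (SE 0.52) and past the threshold (adjusted p = 0.0342).

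Dbh (NCBI gene 13166, chromosome 2 from 27021027 to 27038724 in mm9) had the lowest values of the 5. It held 0.00898, 4.80 and 0.101 in KO, against 14.6, 4.92 and 15.5 in WT. All KO libraries lay below all WT libraries, as in 25.6% of all genes tested, a set that leaves out Dbh and other genes as low. The gap was narrow, with 4.80 in KO library 7 and 4.92 in WT library 3. Dbh had 2 libraries at or above 10 and so missed the filter. The difference of the mean log2(value + 1) was -2.63, and with pseudocounts of 5 and 10 it was -1.33 and -0.88, so its size rests on the pseudocount. With no filter on low values limma gave an adjusted p = 0.0275, and with 1 library also left out it lay between 0.0102 and 0.113: the call ended without KO library 5 (0.0954), KO library 8 (0.0824), WT library 1 (0.052) or WT library 4 (0.113). Dbh lies 1.7 Mb from Ptgds, the targeted gene, whose own value averaged 7.39 ± 6.81 in KO and 7803 ± 1114 in WT (SD, n = 3 each). Of 145 genes tested within 5 Mb of Ptgds, 38 were lower in KO, or 26.2%, against 17.0% of all genes tested, and 16 were higher, where 17.3% of all were. In either direction that made 37.2%, against 34.3% of all genes. Within 10 Mb, 59 of 235 were lower (25.1%) and 24 higher (10.2%). These shares were not tested, and the part of the linked region in the values of Dbh was not tested.

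Prph (NCBI gene 19132, chromosome 15 from 98885605 to 98889409 in mm9) held 13.3, 16.5 and 28.4 in KO, against 53.6, 25.7 and 37.2 in WT. KO library 8 lay above WT library 3, and the other libraries kept apart by genotype. The mean was 19.4 ± 7.95 in KO and 38.8 ± 14.01 in WT (SD, n = 3 each). The log2 change was -0.97 (SE 0.38, adjusted p = 0.0712), with a 95% interval from -1.82 to -0.13 that is not adjusted for the number of genes. It passed without KO library 8 (log2 -1.27, adjusted p = 0.0405) or WT library 3 (log2 -1.23, adjusted p = 0.0392), and it was -0.71 (adjusted p = 0.179) without WT library 1.

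Per kilobase of transcript, Hand2 was the most abundant of the 5 by a wide margin, at 121 to 135 normalised units per kb in KO and 179 to 222 in WT. Phox2a came next in KO, at 12.1 to 18.8 per kb. Its range overlapped those of Prph (7.14 to 15.2) and Th (6.30 to 15.02) in KO. In WT, Phox2a lay at 9.55 to 22.1 per kb, Prph at 13.8 to 28.8 and Th at 10.53 to 57.95, and these ranges overlapped as well. Dbh was the lowest in both groups, at 0.00352 to 1.88 per kb in KO and 1.93 to 6.09 in WT.

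**Figure D2:**
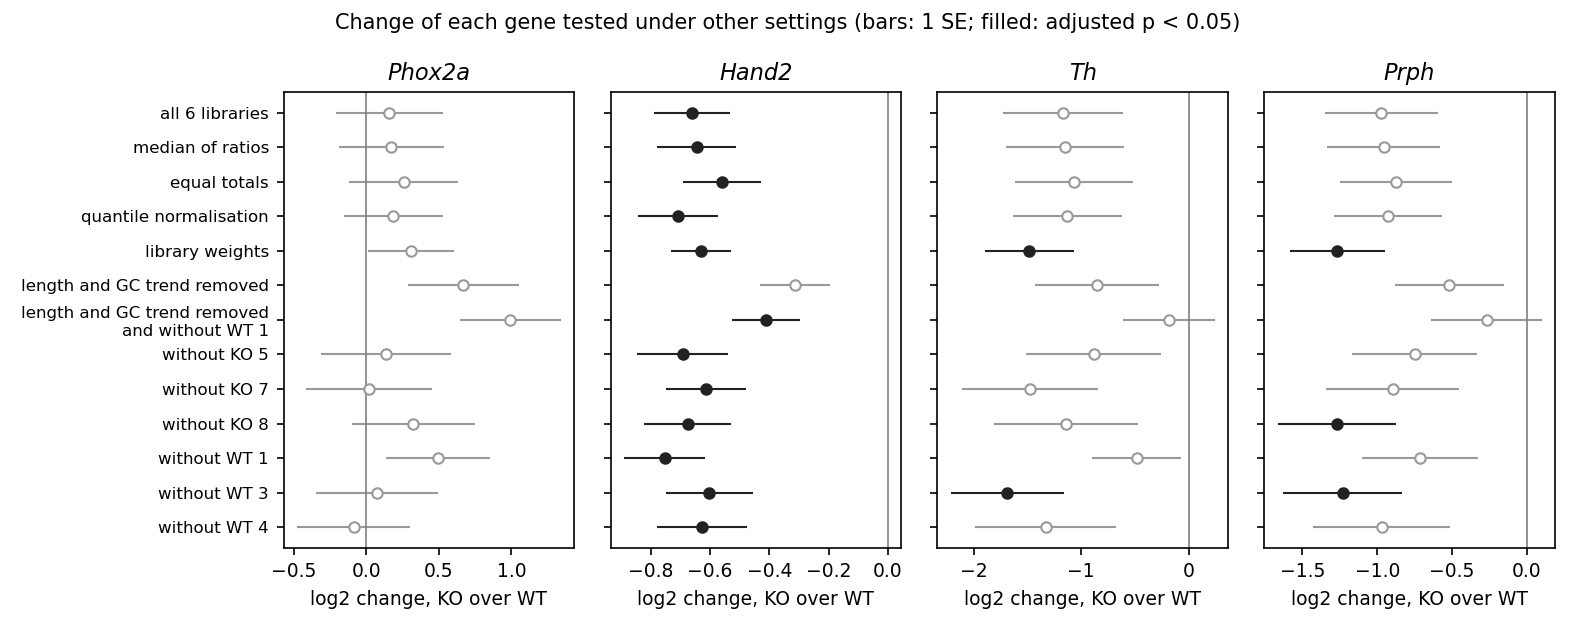
log2 change, KO over WT, of the 4 genes tested with all 6 libraries and under 12 other settings. Points are the fitted changes, bars are 1 SE, and filled points have an adjusted p under 0.05. Hand2 stays below 0 throughout and loses its call when the length and GC trend is removed from all 6 libraries, while Th moves from -1.17 to -0.49 without WT library 1.

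WT library 1 stood apart in several markers, and Th and Prph were highest in it. A list of 12 skeletal muscle genes, chosen after the values were seen, summed to 893 to 1330 in KO, and to 39000 in WT library 1 against 1090 and 1690 in the other WT libraries. All 12 were in the table. By likeness of profile over the 6 libraries, measured as the root mean square difference of centred log2(value + 1), the 3 genes nearest to Th were Lrrc36 (0.186), Actn3 (0.188) and Nrap (0.227). Actn3 encodes an alpha-actinin of fast muscle fibres and Nrap a protein of striated muscle. Actn3 held 36.8, 63.7 and 41.0 in KO, against 283, 55.3 and 67.3 in WT. The part of muscle or other attached tissue in the values of Th was not tested.

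The other members had other neighbours. Genes near to Hand2 were Capg (0.0461) and Tmem88 (0.0535). Capg, an actin-capping protein, held 829, 737 and 845 in KO, against 1059, 1355 and 1388 in WT. Phox2a was nearest to Taf9b (0.118), Ebf3 (0.12) and Adam22 (0.131). Ebf3, a transcription factor of differentiating neurons and mesenchyme, held 186, 203 and 170 in KO, against 255, 132 and 117 in WT. Prph was nearest to Icam4 (0.159), Tspan33 (0.164) and Gnmt (0.168).

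**Figure D3:**
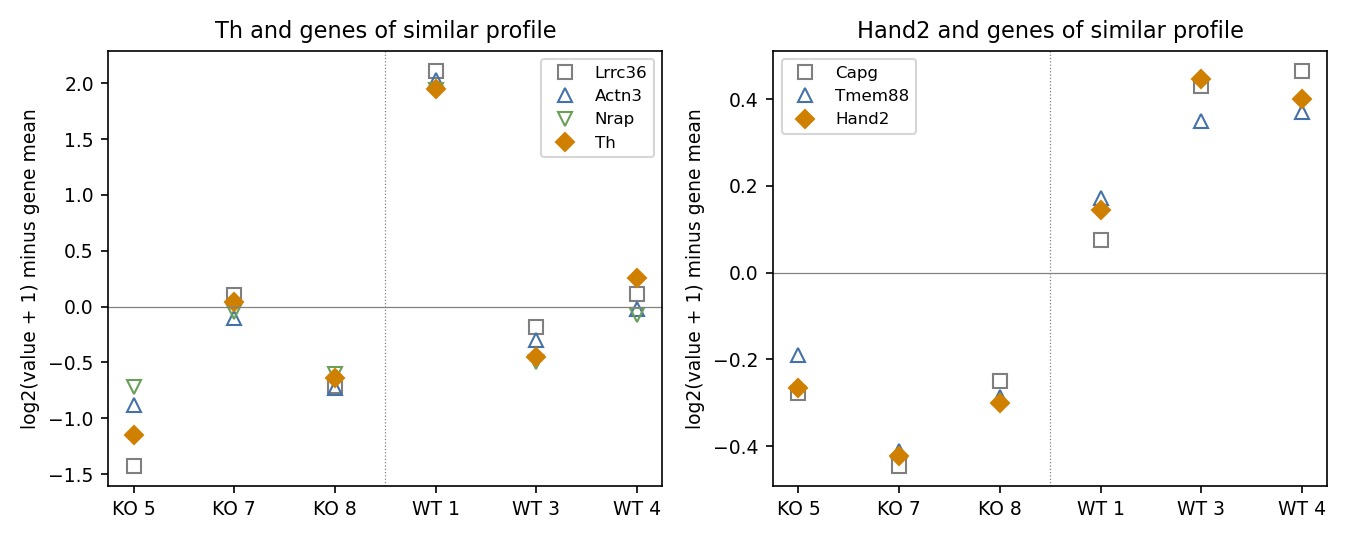
log2(value + 1) minus the mean of each gene, by library, KO left and WT right of the dotted line, for Th (left panel) with Lrrc36, Actn3 and Nrap, and for Hand2 (right panel) with Capg and Tmem88, genes of similar profile. Th and its neighbours peak in WT library 1, whereas Hand2 and its neighbours are lower in each KO library than in each WT library. Neighbours were chosen by this likeness.

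Around the members, transcription factors of the sympathetic lineage went both ways. Of 12 in the table, 10 were tested: 2 rose and 1, Hand2, fell, where 17.3% of all genes tested rose and 17.0% fell. Their median log2 change was 0.24, against -0.03 over all genes tested. Sox4, an SRY-related factor of many progenitor cells, rose to 1559, 1426 and 1647 in KO, against 361, 557 and 358 in WT (log2 1.89, SE 0.16, adjusted p = 0.000744). Mycn, the proto-oncogene amplified in neuroblastoma, rose with a log2 change of 0.40 (adjusted p = 0.0223), which did not pass without KO library 5 (0.0816), KO library 7 (0.0634) or WT library 1 (0.0708). Gata3, needed for sympathetic neurons and also made in the nephric duct, held 46.8 ± 5.37 in KO and 60.2 ± 20.1 in WT (adjusted p = 0.394).

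Of 13 genes of catecholamine synthesis and handling tested, 4 fell and 0 rose, with a median log2 change of -0.27, where 17.0% of all genes tested fell and 17.3% rose. Pnmt, which makes adrenaline from noradrenaline, fell to 48.9, 23.3 and 36.8 in KO, against 69.2, 80.9 and 115 in WT (log2 -1.29, SE 0.31, adjusted p = 0.0107; 0.0547 without WT library 4). Spr and Qdpr, enzymes of the tetrahydrobiopterin cofactor that Th needs, had log2 changes of -0.65 and -0.27 (adjusted p = 0.00316 and 0.0336). Both calls ended with the trend removed, where Spr stood at -0.08 (adjusted p = 0.646) and Qdpr at 0.12 (adjusted p = 0.231), and so did that of Pnmt (-0.69, adjusted p = 0.151). After that removal 2 genes of the list were lower and 0 higher, with a median of -0.29, where 6.65% of all genes were lower and 6.05% higher. The call of Qdpr held in 1 of 6 fits with a library left out, and it also ended with values scaled to equal totals (-0.17, adjusted p = 0.149). Spr averaged 1236 in KO and 1925 in WT, and Qdpr 3255 and 3928, against 19.8 and 55.9 for Th. Genes of this list may also be used by other cells of the gonad. Ddc, named after its values were seen, makes dopamine between the steps of Th and Dbh. It held 102, 160 and 92.1 in KO, against 364, 130 and 189 in WT (adjusted p = 0.0783), again with the highest value in WT library 1.

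Genes of the neuronal cytoskeleton, of granules and of neurotrophic signalling are read against the same shares of all genes, 17.0% lower and 17.3% higher. Of 13 cytoskeleton and axon genes tested, 1 fell and 0 rose, with a median log2 change of 0.01. That gene was Tubb3, a neuronal tubulin, at 316, 293 and 432 in KO, against 821, 506 and 586 in WT (log2 -0.87, SE 0.20, adjusted p = 0.00812). Of 6 granule and vesicle genes tested, 1 fell, Npy, a peptide co-released with noradrenaline. It held 202, 202 and 266 in KO, against 807, 348 and 421 in WT (log2 -1.15, SE 0.27, adjusted p = 0.00933; -0.79 without WT library 1, adjusted p = 0.00484). Chga, the main chromaffin granule protein, held 44.9, 47.2 and 61.6 in KO, against 142, 66.3 and 56.5 in WT (adjusted p = 0.146). Of 14 neurotrophic ligands and receptors tested, 3 fell, among them Ntrk2 (a neurotrophin receptor, log2 -0.89, adjusted p = 0.0164) and Nrtn (a GDNF-family ligand, -0.57, adjusted p = 0.0419), and 0 rose. Ntrk2 did not pass without KO library 5 (0.0552) or 8 (0.0545), nor Nrtn without KO library 5 (0.144), KO library 7 (0.132) or WT library 4 (0.157). With the trend removed Ntrk2 passed (-1.30, adjusted p = 0.00941), while Nrtn (-0.01, 0.953), Tubb3 (-0.45, 0.127) and Npy (-0.54, 0.19) did not. Each of these lists has members that other cells of the gonad may use.

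**Figure D4:**
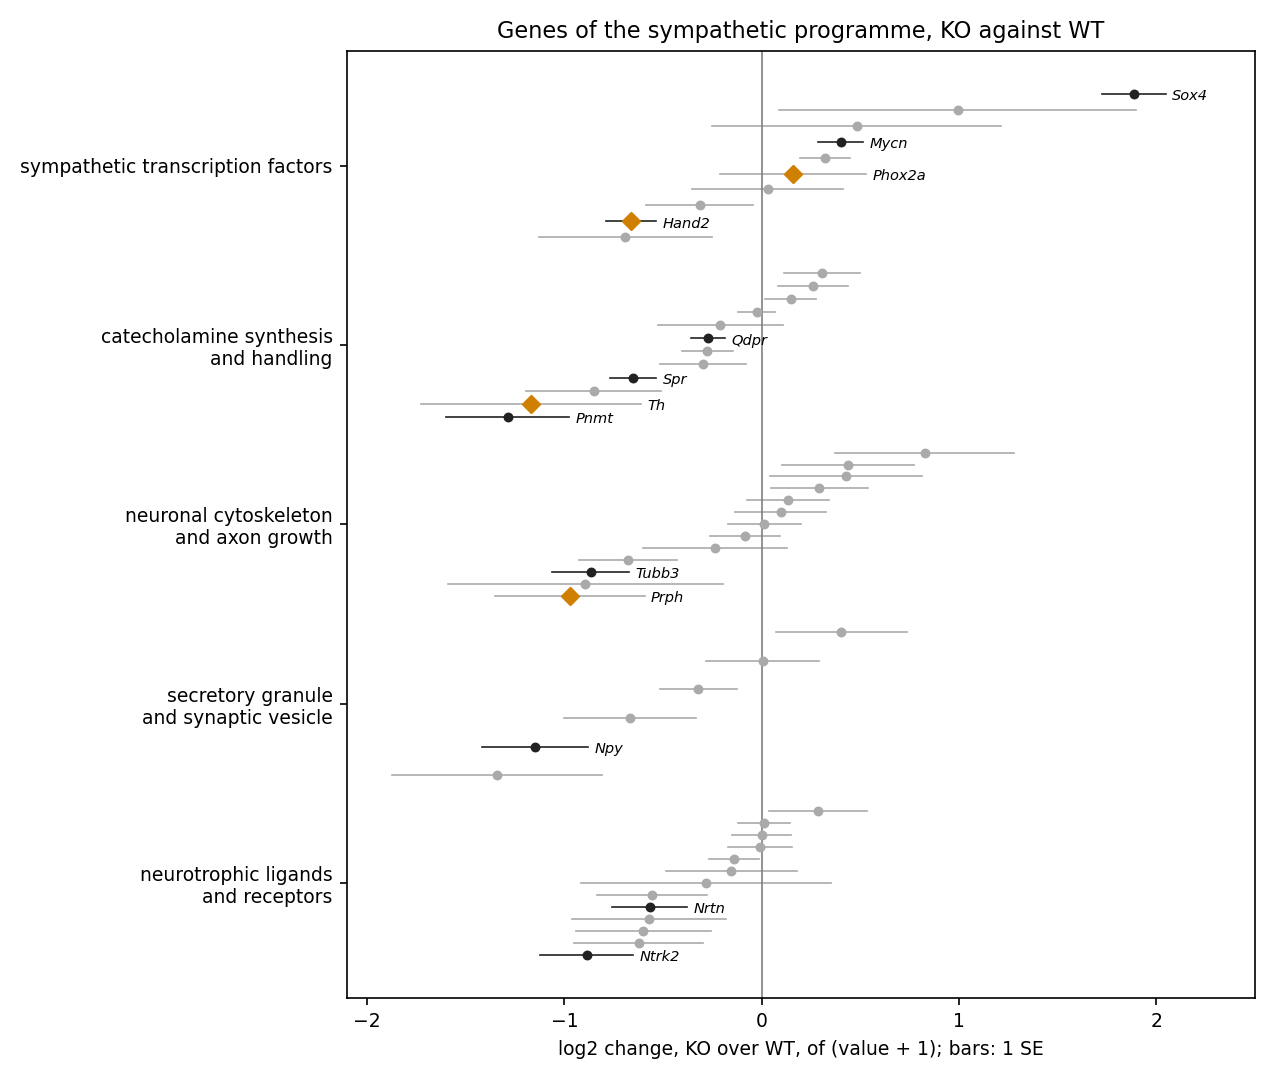
log2 change of (value + 1), KO over WT, of genes tested in 5 lists of the sympathetic programme. Points are fitted changes and bars 1 SE; black points have an adjusted p under 0.05, grey points do not, and diamonds are members. Calls lie on both sides among transcription factors (Sox4 and Mycn above 0, Hand2 below 0) and below 0 in the other 4 lists.

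Markers of the cells from which sympathetic neurons arise, and of their glia, included genes that were low and genes shared with the testis itself. Foxd3, which defines migrating crest, held 1.03, 3.80 and 2.56 in KO, against 30.6, 0 and 4.16 in WT, and missed the filter together with Pax3, Tfap2a and Tfap2b. Sox10, made by crest and glia and also by fetal Sertoli cells in the mouse, held 840, 806 and 970 in KO, against 708, 994 and 943 in WT (log2 -0.005, adjusted p = 0.983). Of 6 crest genes tested, 2 rose, Ets1 (log2 0.55, adjusted p = 0.00595; 0.23 and 0.152 with the trend removed) and Snai2 (log2 0.35, adjusted p = 0.0257), which did not pass without KO library 5 (0.087), KO library 7 (0.0672), WT library 1 (0.0853) or WT library 4 (0.0625). Of 9 glial genes tested, 1 rose and 1 fell. Crest and glial counts stand beside 17.3% of all genes tested higher and 17.0% lower in KO. Erbb3, the neuregulin receptor of Schwann cell precursors, rose to 237, 246 and 281 in KO, against 68.5, 86.7 and 58.6 in WT (log2 1.84, SE 0.19, adjusted p = 0.000802). Mbp, a myelin gene, had a log2 change of -0.40 (adjusted p = 0.0447) that passed in 1 of 6 fits with a library left out. With the trend removed Mbp passed (-0.58, adjusted p = 0.0246). Of 6 cholinergic genes 4 were in the table and 1, Chrnb4, was tested, at 42.1 ± 8.46 in KO and 39.7 ± 8.19 in WT (adjusted p = 0.842); Chrna3 held 6.97 ± 4.26 in KO and 7.27 ± 4.94 in WT. Both encode nicotinic receptor subunits of autonomic ganglia.

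Tissues that could be dissected with the gonad were also listed, as were contractile cells. Calls in these lists are read against the same shares of all genes tested, 17.0% lower and 17.3% higher in KO. Adrenal cortex genes summed to 713 to 812 in KO and 910 to 1468 in WT. Of 5 tested, 2 fell, Mrap (log2 -0.78, adjusted p = 0.00836) and Akr1b7 (log2 -0.54, adjusted p = 0.0164; 0.0505 without WT library 4), and neither passed with the trend removed (adjusted p = 0.367 and 0.181). The cortical enzyme gene Cyp11b1, which fetal Leydig cells also express, held 75.6, 105 and 132 in KO, against 290, 67.3 and 92.1 in WT. Mc2r, the other defining marker, held 157, 172 and 185 in KO, against 222, 185 and 214 in WT (log2 -0.27, adjusted p = 0.193). Other genes of the adrenal list may also be used by cells of the gonad. Mesonephric genes summed to 3965 to 4963 in KO and 3592 to 4421 in WT, and 1 of 11 tested, Lhx1, rose (log2 1.51, adjusted p = 0.00185). Over the 11, however, the median log2 change was -0.28. The defining markers Pax2 and Pax8 did not pass, at -0.28 and -0.52 (adjusted p = 0.46 and 0.102). Pax2 averaged 32.4 in KO and 40.4 in WT, and Pax8 142 and 208. Most of the sum came from Epcam (2397 in KO, 2063 in WT) and Emx2 (1361 and 1131), named after their values were seen. The sum therefore mainly follows Epcam and Emx2 and not the defining markers. Contractile genes, a list that also covers peritubular cells of the testis itself, summed to 7978 to 9004 in KO and 11290 to 26070 in WT. Their sum was highest in WT library 1. Of 7 tested, 4 fell, among them Des, Actg2 and Tagln (log2 -1.34, -1.27 and -1.21), and Myocd rose (log2 1.17, adjusted p = 0.00756). Without WT library 1 the change of Des was -0.86 (adjusted p = 0.000636). Des did not pass with a robust prior (adjusted p = 0.0971), nor Tagln (0.0799), and with the trend removed neither Actg2 (0.0747), Tagln (0.0579) nor Myocd (0.0538) passed. The part of these tissues and cells in the members' values was not tested.

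The testis itself was well represented, with the 8 genes of its main cell types summing to 76120 to 107900 in KO and 112500 to 122300 in WT, and 1 of them, Ddx4, higher in KO (log2 0.48, adjusted p = 0.037). The call of Ddx4 held in 2 of 6 fits with a library left out and ended with the trend removed (0.217). Of all genes tested, 17.3% were higher in KO. Library sums of all values lay between 21657342 and 21846849 in KO and between 22881124 and 23734462 in WT, while upper quartiles ran from 1484 to 1485. Scaling the libraries to the same sum gave 3507 genes higher and 1687 lower in KO, against 2609 and 2571 as deposited. Hpgds, the other targeted gene, averaged 92.9 ± 9.32 in KO and 49.2 ± 5.21 in WT (SD, n = 3 each), a rise (log2 0.90, SE 0.21, adjusted p = 0.00853) that passed without each single library and did not pass with the trend removed (0.60, adjusted p = 0.0919). Rest, which represses neuronal genes in non-neuronal cells, averaged 510 ± 57.2 in KO and 72.9 ± 32.7 in WT, and Rcor1, its corepressor partner, 317 ± 47.9 in KO and 54.2 ± 19.0 in WT.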

How the data were processed

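RNA sequencing of 3 KO and 3 WT gonad libraries was analysed from the authors' deposited table, which gives per gene and library a signal named in its file header and title as an upper-quartile normalised pseudo-count. Per the submitters' processing notes, CASAVA 1.8.2, edgeR 2.6.2 and mm9 were used; the sources used here name no aligner or annotation. Columns were matched to libraries by name, with 0 left over. Depth is unknown, so no counting intervals are given.

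On the scale of log2(value + 1), limma 3.58.1 (R 4.3.3, two-sided, mean-dependent prior) tested each gene, after tests on simulated data; exact tests used scipy 1.17.1, and figures matplotlib 3.10.9 in Python 3.11.15. Fold changes on this scale understate those of low genes. Members and the 12 gene lists were chosen with earlier results of these data known. Lists give all members by count; named are fixed markers, up to 4 further genes past the threshold in each list (the 2 highest where none passed) and nearest profiles; some of these genes are counted but not reported by name or drawn here. Transcript length and GC content came from GENCODE vM21 (longest coding transcript, matched by NCBI gene, then symbol; 95.8% of genes tested); their trend was removed by regression on natural splines, each with 4 degrees of freedom. Alternatives are described under the closing heading on processing. No replicate numbers are shared between KO and WT.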

Additional observations from a re-analysis of the deposited data

How the results depend on the processing

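The direction of Hand2, Th and Prph held under every setting tried that could test them: pseudocounts of 0.5, 5 and 10, no filter, a filter at 50 (which Hand2 alone passed), 3 other scalings, library weights, other priors, removal of the length and GC trend, and leaving out each library. Phox2a changed sign without WT library 4 (range without 1 library -0.09 to 0.49) and was never past the threshold. Hand2 lost its call with the trend removed (-0.31), and ran from -0.75 to -0.60 without 1 library. With library weights Th (-1.48) and Prph (-1.27) passed. Without 1 library Th ran from -1.69 to -0.49, Prph from -1.27 to -0.71 and Dbh from -3.45 to -2.19. Dbh was -1.33 and -0.88 at pseudocounts of 5 and 10 and passed with no filter (-2.63), also without KO library 7 (-3.45) or WT library 3 (-3.11), an alternative added after seeing the data. The members lower in KO numbered 2 with no filter, 3 with library weights, 0 with the trend removed, and 1 to 3 without 1 library. Over all genes, 2609 were higher and 2571 lower; scaling to equal totals gave 3507 higher and 1687 lower, trend removal 877 and 963, trend removal without WT library 1 840 and 886, and leaving out 1 library 1635 to 2495 and 1397 to 2546, the lowest of both without WT library 4. The cause was not tested.

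Of the lists, trend removal left 0 sympathetic factors, cytoskeleton, granule and adrenal genes lower, 2 catecholamine genes and 1 contractile gene lower, and 1 crest, 2 mesonephric, 0 contractile and 0 testis genes higher. With WT library 1 also out these were 2 catecholamine and 0 cytoskeleton, granule and adrenal genes lower, and 0 crest and 2 testis genes higher. Library weights gave 7 catecholamine, 3 cytoskeleton, 1 crest, 4 adrenal, 2 mesonephric and 3 testis genes lower and 2 glial and 2 mesonephric genes higher. No filter gave 2 cytoskeleton genes lower, and the filter at 50 gave 2 cytoskeleton and 2 testis genes lower and 2 glial higher. Median-of-ratios and equal-total scaling each gave 2 glial genes higher and 0 lower. A robust prior gave 2 glial genes higher, 1 contractile and 1 testis gene lower, and no mean-dependent prior gave 1 sympathetic factor, 1 crest and 0 testis genes higher and 2 contractile genes lower. Without 1 library, 1 to 3 sympathetic factors were higher and 1 to 2 lower; 2 to 6 catecholamine, 1 to 3 cytoskeleton, 1 to 2 granule, 1 to 3 neurotrophic, 1 to 3 adrenal, 0 to 1 glial, 0 to 2 mesonephric and 0 to 2 testis genes were lower; and 1 to 2 crest, 1 to 2 glial, 1 to 2 mesonephric and 0 to 1 testis genes were higher. Qdpr turned to 0.12 with the trend removed and to 0.090 with WT library 1 also left out. The calls of Mycn (adjusted p = 0.0675), Snai2 (0.0629), Ddx4 (0.106) and Des (0.051) ended without the mean-dependent prior of limma, and that of Mbp with equal totals (0.116). The share called near Ptgds was 35.3% within 10 Mb. No paired analysis was possible because KO and WT libraries share no numbers.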

Other observations

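The mean profile of the 4 members tested was nearest, by root mean square difference of centred log2(value + 1), to Acad12 (0.0852), Spa17 (0.0895), Ropn1l (0.0899), Tmprss6 (0.0939) and Dnd1 (0.0941). Spa17 and Ropn1l encode proteins of the sperm tail, and Dnd1 an RNA-binding protein that germ cells need to survive. Dnd1 held 1705, 1840 and 1796 in KO, against 4377 in WT library 1 and 2024 and 2361 in the other WT libraries. All 5 had their highest value in WT library 1, as did Phox2a, Th and Prph. The 5 neighbours were chosen by likeness of profile, so their shared peak is a product of that choice.

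Dcx, a microtubule protein of migrating neurons that was named after its values were seen, held 16.4, 30.7 and 16.9 in KO, against 158 in WT library 1 and 18.5 and 19.4 in the other WT libraries (adjusted p = 0.344). Hand1, the close relative of Hand2, is named here outside the rule for naming genes. It held 0.0145, 6.26 and 2.62 in KO, against 4.22, 24.7 and 11.8 in WT, and was below the filter.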
